A study of Mus musculus with 14 samples.

Results

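The data described here are the 7 libraries labelled WT among the 14 of a mouse oocyte series, 4 from germinal vesicle (GV) oocytes and 3 from ovulated oocytes. All 7 came from mice whose Clpx gene is floxed (Clpxfl/fl) and that carry no Cre, so the label WT stands for an intact floxed allele and not for an unmodified strain. The other 7 libraries, from mice that also carry Zp3-Cre, entered only an alternative fit. The libraries were chosen by stage and genotype label alone, and a gene entered when its identifier was listed in the count tables of both stages, which held for 16417 genes. The labels give no age, treatment for ovulation, number of oocytes or animals per library, or batch, so the p-values measure the spread between libraries, which may be technical. Each stage has its own table, and stage and table cannot be told apart in these data.

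A GV oocyte is arrested in prophase of the first meiotic division and holds a large store of maternal mRNA made while it grew. When meiosis resumes, the nuclear envelope breaks down, transcription is silent, and the oocyte passes through the first division to a second arrest, at which it is ovulated. mRNA levels in this window are known to change through decay, through storage, and through shortening or lengthening of the poly(A) tail, the last of which can be directed by cytoplasmic polyadenylation elements near the 3′ end. The labels name SMART-SeqII for the first cDNA strand, a method for very small amounts of RNA that starts from the poly(A) tail as commonly run, so a level here can reflect both the amount of an mRNA and its tail. No spike-in was named, so levels are relative to the other mRNAs of a library, and less RNA per cell cannot be told apart from fewer cells.

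Short stretches of the 3′ ends show what such elements look like in oocyte mRNAs whose levels are given below. Of 30 oocyte genes chosen by role, 7 had TTTTAT or TTTTAAT, 2 forms of the cytoplasmic polyadenylation element, in the last 100 bases of the annotated 3′ UTR. Each sequence is the mRNA strand, 5′ to 3′, from GENCODE M21 (build GRCm38, the assembly also called mm10), with the element and any polyadenylation hexamer (AATAAA or ATTAAA) in capitals. The 3 zona pellucida genes, which lack the element there, are shown as a contrast by the end of their 3′ UTR.
Cdc20 (chr4:118432917-118432946, minus strand): tcttgtTTTTATTTTATtttttctAATAAA
Btg4 (chr9:51119797-51119826, plus strand): agataaatccctTTTTATgtctttttaaaa
Dcp1a (chr14:30527001-30527030, plus strand): atatgtttgcaaatatatttTTTTAATAAA
Ybx2 (chr11:69941532-69941561, plus strand): cctctgaagccaTTTTATgaactgtcatgt
Gdf9 (chr11:53437858-53437887, plus strand): tgctgtggTTTTATgtgacggaagAATAAA
H1f8 (chr6:115950157-115950186, plus strand): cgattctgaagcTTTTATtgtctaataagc
Tcl1 (chr12:105216797-105216826, minus strand): gaatgtgtgggaTTTTATgtggttctattt
Zp1 (chr19:10914289-10914318, minus strand): actcAATAAAccattgtttgaaaactcctg
Zp2 (chr7:120126772-120126801, minus strand): tctttaaactctAATAAAattatcctctgg
Zp3 (chr5:135988612-135988624, plus strand): aagaagaaactca
In Cdc20 a pair of elements overlap by 1 base, and in Dcp1a the element runs into the hexamer. The annotated 3′ UTR of Zp3 is 13 bases long and that of Zp1 is 34 bases, against a median of 1112 bases over all genes with a transcript.

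The libraries held between 25086506 and 28471453 estimated counts. At least 99.9914% of each library's counts lay in genes listed in both tables. The biological coefficient of variation was 26.6% among GV and 47.6% among ovulated libraries. Correlations of log2 CPM across genes were 0.970 to 0.980 within GV, 0.937 to 0.957 within ovulated and 0.728 to 0.819 between the stages, as a description of libraries that share their genes. The first principal component held 79.9% of the variance and separated the stages, and the second, with 8.35%, set ovulated replicate 2 apart from the other two. Defining markers of the labelled cell were present, with 12 of 12 oocyte markers above a group mean of 1 CPM in both stages, although Figla was below 1 CPM in 2 of the 3 ovulated libraries. CPM are counts per 1e+06 counts after TMM scaling, the edgeR scaling that balances the bulk of genes between libraries.

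Between the stages, the levels of a majority of WT oocyte mRNAs changed. Of 12573 genes tested, 3750 were higher and 4264 lower in ovulated oocytes by edgeR's quasi-likelihood test at an adjusted p of 0.05, which is 63.7% of genes in either direction. These are 29.8% of tested genes for rises and 33.9% for falls, and every count of list members below is read against them. The falls were larger than the rises. At 4-fold or more, 875 genes had risen and 2637 had fallen, and at 16-fold or more the counts were 9 and 735. The median gene had a log2 fold change of −0.07, with −4.16 and 2.16 at the 5th and 95th percentiles. Under scaling to total counts the median gene moved to 0.26, a shift of 0.33, and the counts were 4329 higher and 3405 lower. Without ovulated replicate 2 the counts were 4028 and 4519.

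**Figure D1:**
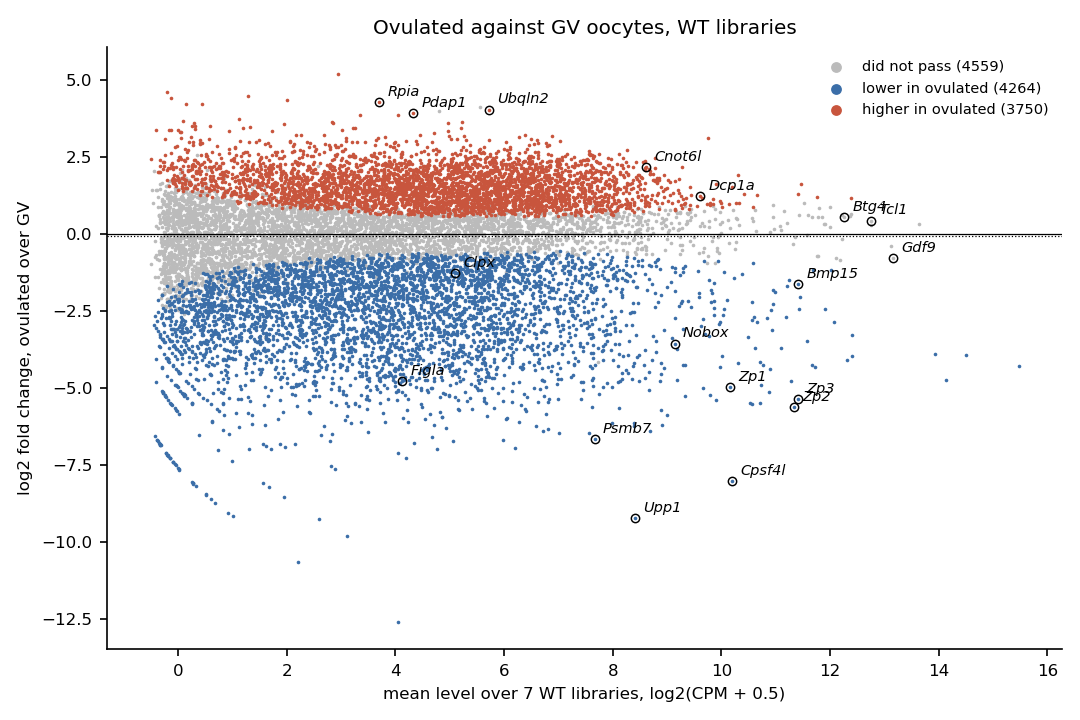
Log2 fold change of ovulated over GV oocytes (y axis) against the mean level over the 7 WT libraries (x axis, log2 of CPM + 0.5), 1 point per tested gene, with 3750 genes higher in red, 4264 lower in blue and 4559 that did not pass in grey. The solid line is 0 and the dotted line the median gene (−0.07), and falls reach further from 0 than rises.

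Weighted by abundance, the change was more uneven. The genes that fell held 54.6% to 59.1% of the counts of a GV library and 9.70% to 13.7% of those of an ovulated library. The genes that rose held 11.3% to 16.5% in GV and 43.1% to 50.9% in ovulated libraries. These shares follow from the calls and are a description. The 10 genes with most counts took 17.0% to 22.2% of a GV library and 7.58% to 10.5% of an ovulated one. With genes in 4 equal bins by mean level, 45.5% of the highest bin (44.7 CPM and above) fell and 27.7% rose, whereas in the lowest bin 20.6% fell and 22.1% rose.

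Of 1583 genes with a mean of at least 100 CPM in GV oocytes, 84 had a mean under 10 CPM in ovulated oocytes. In the other direction, 2 of 1754 genes had at least 100 CPM in ovulated and under 10 CPM in GV oocytes. These were Ubqln2, which encodes a ubiquitin-binding shuttle protein, and Spp1, the gene for osteopontin, which reached 303.7 CPM in ovulated replicate 3 but 0 and 0.329 CPM in replicates 1 and 2 and did not pass (edgeR adjusted p = 0.172). At a lower level, 152 genes went from at least 10 CPM to under 1 CPM. Only Ddit4, the gene for a stress-induced inhibitor of mTOR signalling, went the opposite way, from a mean of 0.44 to 16.3 CPM (log2 fold change 5.18, edgeR adjusted p = 0.000127). Ddit4 and Spp1 were named after their values were seen.

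Fewer genes were detected in ovulated oocytes. At least 1 count was found for 15159 ± 155 genes per library (SD, n = 4) in GV and for 14091 ± 629 (SD, n = 3) in ovulated oocytes, that is −1068 genes (two-sided exact permutation test, p = 0.0286, the smallest that 4 against 3 libraries allow). When every library was thinned to the depth of the shallowest, −1017 genes remained as the difference (exact p = 0.0286). With at least 10 counts required it was −511 and did not pass (exact p = 0.143). Genes listed in 1 table only were weakly expressed. Of 1659 listed for GV alone, 6 had a mean of at least 1 CPM, with the predicted gene Gm11237 highest at 5.52 CPM, followed by LOC100862245 (2.24), Gm3183 (1.77), Klk1 (1.72) and Fxyd2 (1.44). Of 486 listed for ovulated oocytes alone, 2 reached that level, Asdurf at 5.13 CPM and Tnfaip6, a gene of the cumulus matrix, at 4.75 CPM. Tnfaip6 ranged from 0 to 13.98 CPM over the 3 libraries. The next of that table were Pcdha7 at 0.461 CPM, and Gas1 and Sult1e1 at 0.366 CPM each.

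Clpx, the floxed gene, was present in all 7 libraries. It stood at 59.5, 40.5, 40.8 and 40.5 CPM in the GV libraries and at 19.6, 18.9 and 17.5 CPM in the ovulated libraries. Every ovulated library was below every GV library, as for 35.5% of all tested genes. The log2 fold change was −1.28 (SE 0.25, edgeR adjusted p = 0.00081). Clpp, which encodes the peptidase that CLPX feeds with unfolded proteins, fell further. It was at 14.8, 8.89, 11.2 and 10.2 CPM in GV and at 0.109, 0.299 and 0.348 CPM in ovulated libraries (−5.45, SE 0.47, edgeR adjusted p = 2.44e-06).

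The list of the most abundant mRNAs per length changed at its head. By FPKM, the authors' unit scaled to gene length and library size, Clec16a led in GV oocytes at 19811 ± 3047 (SD, n = 4) and ranked 54 in ovulated oocytes at 1365. Hexdc (11652 to 999 FPKM), Hddc3 (9380 to 474), Ubb, a polyubiquitin gene (7755 to 611), Ldhb, a lactate dehydrogenase subunit (7451 to 961), and Elobl (6629 to 318) also left the top 10. Each of these 6 genes, Clec16a included, fell by edgeR, with log2 fold changes from −3.27 to −4.79. Gdf9 moved to rank 14 and did not pass. Their places were taken by Omt2b (4011 to 11079 FPKM), the securin gene Pttg1 (2687 to 10431), Tcl1, Oosp1, Bcl2l10, Mphosph6 and Omt2a (2090 to 6462). Of these 7, Omt2b, Pttg1 and Omt2a passed on the TMM-scaled counts, with log2 fold changes of 1.2, 1.62 and 1.29. FPKM are not TMM-scaled and so show larger rises than the counts.

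Obox2, H1f8 and Dppa3 were among the first 10 in both stages. Obox2, a homeobox gene of a family of near-identical copies whose counts are uncertain, had 7589 FPKM in GV and 7634 in ovulated oocytes. H1f8, the oocyte linker histone, went from 6179 to 9374 FPKM, and Dppa3, a maternal factor that protects DNA methylation, from 5345 to 8258. Of the top 100 genes of each stage, 50 were shared.

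**Figure D2:**
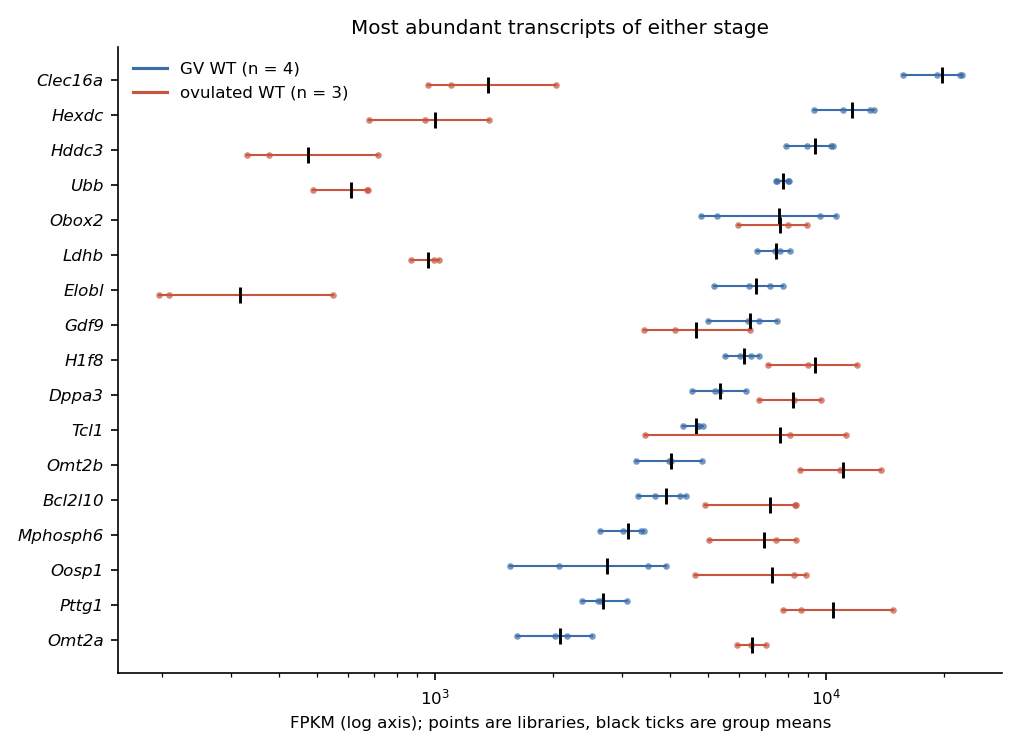
FPKM on a log axis for the 17 genes that ranked in the first 10 of either stage, with each library as a point (GV blue, ovulated red), a line over the range and a black tick at the group mean. Clec16a and Hexdc drop by more than 10-fold between stages, while Obox2 has nearly equal means.

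The largest falls by edgeR, among genes averaging 10 CPM or more whose stages did not overlap, ended at low levels in ovulated oocytes. Upp1, which encodes uridine phosphorylase, stood at 455.9, 738.7, 411.3 and 775.1 CPM in the GV libraries. In the ovulated libraries it stood at 0.546, 1.71 and 0.66 CPM. Cpsf4l, a paralogue of a cleavage and polyadenylation factor gene, was between 1219 and 3094 CPM in GV and between 3.93 and 10.3 CPM in ovulated oocytes. Their log2 fold changes were −9.24 (SE 0.58, adjusted p = 6.12e-07) and −8.03 (SE 0.62, adjusted p = 1.3e-06). The others were Fam187b (−7.29), the complex I assembly factor gene Ndufaf3 (−7.12), the cyclophilin genes Ppie (−6.99) and Ppil3 (−6.69), Smim20 (−6.93), Znrd1 (−6.78), Agpat2, an acyltransferase gene of lipid synthesis (−6.72), and the proteasome subunit gene Psmb7 (−6.67).

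The largest rises were smaller and more variable among the ovulated libraries. Rpia, the ribose-5-phosphate isomerase gene, had 1.08, 1.61, 2.21 and 0.668 CPM in GV oocytes. It had 20.3, 54.1 and 7.37 CPM in ovulated oocytes, where replicate 2 was highest (log2 fold change 4.27, SE 0.61, adjusted p = 7.9e-05). Ubqln2 rose from a range of 3.29 to 10.9 CPM to 72.1, 224.3 and 43.1 CPM (4.04, SE 0.57, adjusted p = 7.75e-05), again with replicate 2 highest. Rtf1, a gene of a transcription elongation complex, had the smallest SE of the 10, with 5.79 to 6.51 CPM in GV and 61.2, 99.1 and 73.3 CPM in ovulated oocytes (3.65, SE 0.26, adjusted p = 8.96e-07). The remaining 7 were Pdap1 (3.92), Ttyh3 (3.85), the BCL2 family gene Bcl2l2 (3.60), Tmed9 (3.45), Tcof1, a nucleolar protein gene (3.33), Elavl3, an RNA-binding protein gene (3.28), and the splicing factor gene Zrsr2 (3.23). The rule that chose these 10 required that the stages not overlap. Replicate 2 was the highest of the ovulated libraries for 9 of the 10, and without it Ubqln2 was at 3.06, Ttyh3 at 2.72 and Rpia at 3.29.

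Genes for the zona pellucida, the glycoprotein coat made by the growing oocyte, fell steeply and evenly. Zp3 (gene ID 22788), for a component of that coat, had 4453, 4254, 4326 and 5701 CPM in the GV libraries and 106.6, 111.5 and 121.1 CPM in the ovulated libraries. Zp2 fell from between 3541 and 6067 CPM to between 81 and 98 CPM, and Zp1 from between 1472 and 2461 to between 57.4 and 68 CPM. The stages did not overlap for any of them, nor for 63.9% of all tested genes, and the log2 fold changes were −5.37 for Zp3 (SE 0.38, adjusted p = 8.96e-07), −5.62 for Zp2 (SE 0.41, adjusted p = 9.78e-07) and −4.99 for Zp1 (SE 0.37, adjusted p = 1.07e-06). These are the mRNAs with the 13-base and 34-base 3′ UTRs shown above, and Zp2 has one of 173 bases.

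Bmp15 and Gdf9, which the oocyte secretes, had smaller values than the zona genes. Bmp15, a TGF-beta family factor that acts on cumulus cells, fell from 2816, 3454, 3517 and 5556 CPM to 1244, 1269 and 1187 CPM (−1.64, SE 0.35, adjusted p = 0.00133). Its partner Gdf9 stood at 11131, 9550, 8966 and 14923 CPM in GV and at 10004, 4432 and 4889 CPM in ovulated oocytes. The groups overlapped, and Gdf9 did not pass (−0.79, 95% interval −1.67 to 0.09, edgeR adjusted p = 0.105). It passed without ovulated replicate 1 (−1.17, adjusted p = 0.0341). Fgf8, another secreted growth factor gene, fell as far as the zona genes, with a log2 fold change of −5.38. Of 14 genes for the zona and secreted factors, 5 rose and 6 fell. Those that rose were the Omt2 pair, Oosp3 (1.30), Kitl, which encodes the ligand of KIT (1.54), and Kit itself (0.88). Kitl was low, with means of 2.42 CPM in GV and 7.08 CPM in ovulated oocytes, and its cell of origin was not tested. Kit encodes a receptor and not a secreted factor, and its stages overlapped.

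In the list of oocyte transcription factors, Figla, Nobox, Lhx8, Obox3 (−1.675) and Sebox (−1.526) fell while a larger number of genes rose. Figla, which activates the zona genes, had 27.3 to 29.6 CPM in GV and 0.655, 1.65 and 0.799 CPM in ovulated libraries (−4.78, SE 0.38, adjusted p = 1.63e-06). Nobox, a homeobox gene needed for follicle growth, went from between 742.6 and 1199 CPM to between 75.2 and 85.4 CPM (−3.56, SE 0.32, adjusted p = 3.41e-06), and Lhx8 fell by 2.92 on the log2 scale. Of 24 members of the list, 10 rose and 5 fell, with a median of 0.56. Ybx1, which encodes a nucleic acid-binding protein, rose from a range of 31.1 to 65.3 CPM to 223, 282.6 and 237.7 CPM (2.39, SE 0.28, adjusted p = 2e-05). Klf4 (2.75), Taf4b (1.60), Tcf3 (1.58), Foxo3 (1.33) and Sohlh2 (1.28) rose as well. The remaining rises were Sp1 (1.315), Stat3 (1.086), Gtf2a1 (1.039) and Tcf12 (1.028).

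Members of the subcortical maternal complex, a protein assembly under the oocyte membrane that the embryo needs, mostly fell. Log2 fold changes were −4.91 for Tle6, −4.67 for Khdc3, −4.32 for Padi6, −2.95 for Nlrp2, −2.64 for Nlrp5 and −2.28 for Ooep, while Zbed3, another member, rose (1.18). Nlrp5, for example, had 2039, 1112, 1637 and 1756 CPM in GV and 260.9, 227.8 and 298.4 CPM in ovulated oocytes (SE 0.33, adjusted p = 3.48e-05). The same list holds chromatin regulators, which went both ways. Kdm1a, a histone demethylase gene (2.34), Tet3, which oxidises methylated DNA (2.17), Kmt2b, a histone methyltransferase gene (2.11), Brwd1 (2.05), Trim28 (1.95) and Ezh2 (1.71) rose, while Dnmt3l (−3.65), Zfp57 (−1.81) and Npm2 (−1.44) fell and Dnmt1 (−0.31), Uhrf1 (0.44) and Setdb1 (0.51) did not pass. Over the 33 tested members of the whole list, 13 rose and 11 fell (median 0.44).

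Dppa3 did not pass, with 2462 to 4356 CPM in GV and 3710 to 4802 CPM in ovulated oocytes (0.33, 95% interval −0.38 to 1.04, edgeR adjusted p = 0.388). Tcl1, a co-activator gene of AKT kinase, spread more widely in ovulated oocytes, at 12855, 2910 and 8518 CPM, against 4673 to 7645 CPM in GV oocytes (0.43, interval −0.57 to 1.44, adjusted p = 0.423). H1f8 had a log2 fold change of 0.30 (interval −0.54 to 1.14, adjusted p = 0.513). Under scaling to total counts Dppa3 (0.71, edgeR adjusted p = 0.0139) and H1f8 (0.65, adjusted p = 0.0236) passed, and these intervals do not show that the levels were equal. Of the 4559 genes that did not pass, 1098 had a 95% interval within 2-fold in both directions.

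**Figure D3:**
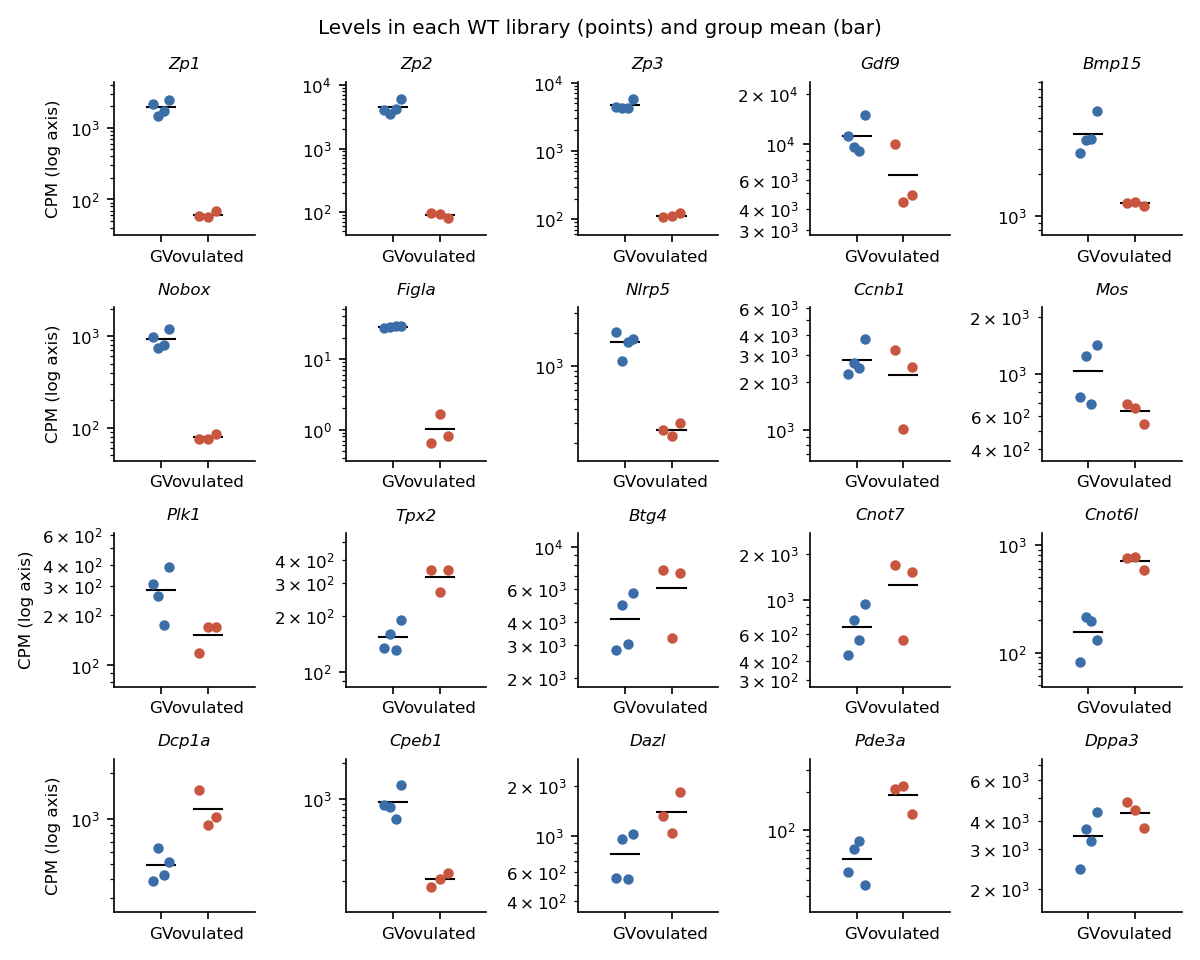
CPM on a log axis for 20 oocyte genes, with each WT library as a point (GV blue, 4 libraries, and ovulated red, 3 libraries) and the group mean as a black bar. The zona genes, Figla, Nobox, Nlrp5 and Cpeb1 sit lower in all ovulated libraries, Cnot6l, Dcp1a, Tpx2 and Pde3a sit higher in all of them, and Ccnb1, Gdf9, Btg4 and Dppa3 overlap.

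Genes that store maternal mRNA and control its translation split. Cpeb1, which binds cytoplasmic polyadenylation elements, fell from 877.3, 857.2, 678.6 and 1319 CPM to 179.7, 209 and 235 CPM (−2.17, SE 0.32, adjusted p = 0.000112). Its paralogues Cpeb2, Cpeb3 and Cpeb4 rose, with log2 fold changes of 1.47, 2.47 and 2.64. Zar1l (−4.29), the poly(A)-binding protein gene Pabpc1l (−3.90), Patl2 (−3.28) and Ybx2, an mRNA-coating protein gene (−1.67), fell. Ybx2 lost its call without ovulated replicate 1 (−1.19, adjusted p = 0.079). Lsm14b (2.94), Lsm14a (2.38), Msi2 (1.96) and Pum2 (1.93), all for RNA-binding proteins, rose.

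Dazl, which promotes translation during maturation, had 553, 956.9, 545.2 and 1015 CPM in GV and 1316, 1036 and 1831 CPM in ovulated oocytes (0.86, SE 0.34, adjusted p = 0.0427). Leaving out GV replicate 1, GV replicate 3 or ovulated replicate 3 ended that call (adjusted p = 0.11, 0.113 and 0.186). Zar1, Eif4e1b and Pabpn1l did not pass (0.51, 0.23 and 0.03), although Zar1 did without ovulated replicate 1 (0.97, adjusted p = 0.0372). In the list as a whole 17 of 40 genes rose and 10 fell (median 0.57).

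The machinery of mRNA decay was among the lists with most rises, 25 of 47 genes against 7 that fell (median 1.08). Cnot6l, a deadenylase subunit of the CCR4-NOT complex, rose from 81, 214, 196.8 and 130.5 CPM to 750.3, 762.7 and 583.8 CPM (2.17, SE 0.34, adjusted p = 0.000172). Upf1, the helicase of nonsense-mediated decay, rose from a range of 7.47 to 15.5 CPM to 77.8, 79.9 and 67.3 CPM (2.73, SE 0.28, adjusted p = 7.91e-06). Dcp1a, a decapping co-factor gene, rose from 386.5, 637.9, 423.7 and 518.4 CPM to 1541, 906.5 and 1022 CPM (1.23, SE 0.31, adjusted p = 0.00391). In Cnot6l, Upf1 and Dcp1a the stages did not overlap, nor did they for 63.9% of all tested genes. Tut7, a uridylating enzyme gene (2.45), Meioc (2.36), Cnot6 (2.23), Xrn1, the 5′ exonuclease gene (2.08), Dcp2 (1.32) and Nanos1 (1.26) rose too. Meioc was low, with means of 0.365 CPM in GV and 1.85 CPM in ovulated oocytes, and its stages overlapped.

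The deadenylation adaptor Btg4 and the deadenylase Cnot7 had overlapping groups. Btg4 had 2831, 4892, 3036 and 5648 CPM in GV and 7531, 3268 and 7237 CPM in ovulated oocytes (0.55, 95% interval −0.33 to 1.43, edgeR adjusted p = 0.246). Cnot7 had 438.5 to 948.4 CPM in GV and 1701, 546.5 and 1524 CPM in ovulated oocytes (0.91, interval 0.02 to 1.79, adjusted p = 0.068). Ovulated replicate 2 was the low library for both, and without it Cnot7 passed (1.26, adjusted p = 0.00747). Under scaling to total counts both passed, at 0.91 for Btg4 and 1.25 for Cnot7 (edgeR adjusted p = 0.00595 and 0.00183). Among the 7 that fell were the exosome gene Exosc5 (−4.49), the CCR4-NOT subunits Cnot10 (−4.27) and Cnot1 (−1.08), and Parn (−1.20).

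The cAMP pathway holds the GV arrest through protein kinase A. Genes of the list on cAMP control of meiotic arrest rose more often than they fell, 12 and 3 of 28 (median 0.56). The list also holds genes outside the pathway itself, among them Gja4, Wee2, Mastl, Arpp19 and Ensa. The 3 that fell were Gja4, Ensa (−1.52) and Pde10a (−1.14). Pde3a, the phosphodiesterase whose activity lowers cAMP at resumption, rose from 47.1, 70.4, 82.3 and 36.7 CPM to 213.6, 224.8 and 133.6 CPM (1.69, SE 0.32, adjusted p = 0.000558). Pde3b (2.46) and the kinase subunit genes Prkar2a (2.18), Prkacb (2.04), Prkar2b (1.57) and Prkaca (1.42) rose as well. Gja4, the connexin of the junctions between oocyte and granulosa cells, fell (696.4 ± 257.5 CPM in GV, SD, n = 4, and 20.9 ± 7.14 CPM in ovulated oocytes, SD, n = 3; −5.06, SE 0.45, adjusted p = 3.38e-06). Gpr3, the receptor that sustains cAMP, did not pass, at 19.9 to 25.3 CPM in GV and 22 to 41.2 CPM in ovulated oocytes (0.43, interval −0.15 to 1.01, adjusted p = 0.177), and passed without ovulated replicate 1 (0.72, adjusted p = 0.0451).

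Of 29 cyclin, CDK and regulator genes, 9 were higher (31.0%) and 11 lower (37.9%), near the 29.8% and 33.9% of all genes. Ccnb1, the cyclin of maturation-promoting factor, had 2280, 2673, 2457 and 3766 CPM in GV and 3215, 1012 and 2494 CPM in ovulated oocytes (−0.32, interval −1.20 to 0.56, edgeR adjusted p = 0.503). Without ovulated replicate 2 its value was 0.03. Cdk1, its kinase, was at 133.5 to 185.2 CPM in GV and at 54.6, 39.2 and 157.7 CPM in ovulated oocytes (−0.93, adjusted p = 0.0657). Without ovulated replicate 3 it passed at −1.77 (adjusted p = 0.000655). With no library left out it passed with DESeq2 (−0.925, DESeq2 adjusted p = 0.035) and limma-voom (−1.185, limma-voom adjusted p = 0.0176). It also passed at 10 CPM, in the fit of all 14 libraries and with a replicate block. It did not pass under total-count or upper-quartile scaling, without the filter on low counts or on FPKM.

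Ccno (−2.95), Cdk2 (−3.41), Ccnd2 (−4.82), the phosphatase genes Cdc25c (−3.40) and Cdc25b (−2.01), and Wee1 (−2.29) fell. The CDK inhibitor genes Cdkn1a (2.67) and Cdkn1b (1.56), with Cks1b (1.42) and Cks2 (1.18), rose. Plk1, a mitotic kinase gene, fell from a range of 175.4 to 388.8 CPM to 118.9, 168.9 and 169.2 CPM (−0.89, SE 0.31, adjusted p = 0.0228). It lost that call without GV replicate 4 (−0.64, adjusted p = 0.0909) or ovulated replicate 1 (−0.65, adjusted p = 0.129), and under scaling to total counts (−0.49, adjusted p = 0.154).

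Mos, the kinase that starts the MAPK cascade of the egg, had 756.8, 1237, 693.4 and 1428 CPM in GV and 691.3, 659.3 and 544.5 CPM in ovulated oocytes. All ovulated values were below all GV values, as for 35.5% of all tested genes. Mos did not pass (−0.70, interval −1.43 to 0.02, edgeR adjusted p = 0.081). Without GV replicate 3 it passed (−0.86, adjusted p = 0.049). Mapk3, a kinase gene at the end of the cascade, fell (−2.74). Fbxo43, which inhibits the anaphase-promoting complex in the second arrest, rose from a range of 110.4 to 196.8 CPM to 352.1, 170.9 and 317.6 CPM (0.89, SE 0.31, adjusted p = 0.0235), a call lost without any 1 of GV replicates 1 or 3 or ovulated replicates 1 or 3 (adjusted p = 0.057 to 0.0761). Of 25 genes in the MOS, MAPK and cytostatic factor list, 10 rose and 6 fell.

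Cohesin and anaphase-promoting complex genes passed in 32 of 35 cases, 18 higher and 14 lower. Smc3, a cohesin ring subunit, rose from 116.7, 156.9, 120.1 and 128.7 CPM to 675.8, 479.4 and 433.4 CPM (2.02, SE 0.27, adjusted p = 4.78e-05). Rad21 (2.34), Stag1 (2.05), Smc1b (1.89), the protector of centromeric cohesin Sgo2a (1.87), Pttg1 (1.62) and the separase gene Espl1 (1.55) rose, whereas Stag3, a meiosis-specific cohesin gene (−2.99), and Meikin, a meiotic kinetochore gene (−3.54), fell. Of the complex's subunit genes 9 fell, among them Anapc15 (−2.25), Anapc5 (−1.97) and Anapc2 (−1.36), and 4 rose, Anapc10 (1.84), Cdc26 (1.52), Anapc1 (1.39) and Cdc27 (1.19). Cdc20, the activator with a pair of overlapping elements in its 3′ UTR, had 187.1, 138.6, 95.4 and 158.6 CPM in GV and 435.2, 126.5 and 247.4 CPM in ovulated oocytes and did not pass (0.90, adjusted p = 0.0537). Without ovulated replicate 2 it passed (1.23, adjusted p = 0.00675). With no library left out it passed under scaling to total counts (1.17, edgeR adjusted p = 0.0063) and with DESeq2 (0.92, DESeq2 adjusted p = 0.0282). It also passed with upper-quartile scaling, in the fit of all 14 libraries and on FPKM. It did not pass with limma-voom, without the filter on low counts, at 10 CPM or with a replicate block.

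Spindle genes were evenly divided, 19 higher and 19 lower of 49. The tubulin genes Tubb4b (−5.50), Tuba1b (−5.37), Tubb5 (−4.63) and Tuba1a (−4.25) fell, and Tubb5 went from between 196.7 and 365.8 CPM to between 9.06 and 11.3 CPM. The kinetochore gene Ska3 (−4.32), Tacc3 (−3.35) and the kinase genes Aurkb (−2.49) and Aurka (−1.92) fell too. Tpx2, which activates Aurora A on the spindle, rose from 135.2, 159.8, 132.2 and 191.2 CPM to 352.5, 267.4 and 351.4 CPM (1.07, SE 0.25, adjusted p = 0.00273). Motor and microtubule-binding protein genes were found on both sides. Clasp2 (3.09), Cenpe (2.11), Ckap5 (2.03) and Numa1 (1.73) rose, Kif22 (−3.28), Kif2c (−1.99), Kif18b (−1.83) and Nusap1 (−1.74) fell, and Clasp1 (0.37), Kifc1 (0.52) and Prc1 (0.33) did not pass.

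In the actin list, Cfl1 (−3.78) and Cfl2 (−2.82), which sever filaments, the actin gene Actg1 (−3.22), the profilin genes Pfn1 (−2.19) and Pfn2 (−1.88), and Spire2 (−3.33) fell. Fmn2, the formin that positions the spindle, rose by 2.56 on the log2 scale, as did Wasl (2.28), Diaph1 (2.16) and Wasf2 (2.10). Over the list of 36 genes, 14 rose and 9 fell. In the sperm-binding and calcium list, 9 of 29 rose (31.0%) and 10 fell (34.5%), near the 29.8% and 33.9% of all genes. Izumo1r, the sperm receptor JUNO, fell from between 250.1 and 429.4 CPM to 27.5, 28.4 and 44.5 CPM (−3.25, SE 0.33, adjusted p = 7.6e-06). Cd9, needed for sperm-egg fusion, fell from between 191 and 250.7 CPM to between 8.77 and 13.8 CPM (−4.19, SE 0.30, adjusted p = 8.96e-07). The calcium-release channel genes Itpr1 (1.70) and Itpr2 (2.18) and the pump gene Atp2b1 (2.03) rose.

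The lists with the lowest medians encode ribosomes, respiratory chain, proteasome and mitochondrial proteins. Of 82 cytosolic ribosomal protein genes, 73 fell and 2 rose, with a median of −3.06 beside −0.07 for all genes. Rpl7a, a large-subunit gene, went from 117.9, 190.3, 129.4 and 196.6 CPM to 2.47, 5.90 and 6.53 CPM (−4.99, SE 0.41, adjusted p = 2.03e-06). The mean log2 CPM of the list was 5.80, 6.70, 6.02 and 6.59 in the GV libraries and 2.26, 3.79 and 3.75 in the ovulated libraries, so that replicate 1 was lowest. Genes of this family have many processed pseudogenes that can share reads. The 2 that rose were Rps27l (2.35), a paralogue of Rps27, and Rps15a (1.66), while Rpl22 (0.38) and Rplp2 (0.04) did not pass.

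Of 36 genes for complex I of the respiratory chain, 30 fell and 1, Ndufa10 (1.22), rose (median −2.88). Ndufa9 fell from between 151 and 180.9 CPM to between 1.38 and 3.20 CPM (−6.24, SE 0.37, adjusted p = 5.65e-07). For complexes II to V the counts were 35 lower and 1 higher of 42 (median −2.47), with Atp5g1, an ATP synthase subunit gene, going from between 198.2 and 221.7 CPM to between 7.71 and 10.2 CPM. Mitochondrial ribosomal protein genes fell in 57 and rose in 6 of 79 cases (median −1.99), and mitochondrial protease and chaperone genes fell in 16 and rose in 0 of 24 cases by edgeR (median −1.88), with 0 rises also at an unadjusted p of 0.05, by DESeq2 and by limma-voom. Lonp1, the other matrix protease of the AAA+ class, fell by 1.85, whereas the chaperonin genes Hspd1 (0.49) and Hspe1 (−0.52) and the mitochondrial Hsp70 gene Hspa9 (0.37) did not pass. Of 34 proteasome genes, 23 fell and 4 rose (median −2.17). The 4 were the activator genes Psme4 (2.36) and Psme3 (0.93) and the regulatory cap genes Psmd3 (2.09) and Psmd7 (0.66).

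Among 48 translation factor genes, 24 fell and 13 rose (median −1.11). Eif3l (−5.47) and Eif3m (−3.84), for subunits of eIF3, Eif2b4 (−4.73), for a subunit of eIF2B, and the elongation factor gene Eef1a1 (−4.19) fell. Other subunit genes of the same complexes rose, Eif3a (1.54) and Eif3i (1.27), or did not pass, Eif3e (0.43) and Eif2b1 (0.74). The scaffold genes Eif4g1 (2.00), Eif4g2 (1.71) and Eif4g3 (1.43) and Eif5b (2.46) rose.

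Splicing factor genes stood at the other end, with 28 of 50 higher and 5 lower (median 0.98). Hnrnpl (3.02), Snrnp70 (2.81), Snrpd3 (2.64), Hnrnpr (2.36) and Srsf4 (2.17) rose, and Srsf4 had 10.9 to 17.1 CPM in GV and 56.1, 67.7 and 62 CPM in ovulated oocytes. Snrpd2, a core subunit of the spliceosomal ribonucleoproteins, was an exception and fell by 5.92 on the log2 scale. Nuclear pore and lamina genes rose in 13 and fell in 8 of 35 cases, led by Lmnb1 (3.21), Pom121 (2.41), Tpr (2.17) and Nup62 (2.08). The histone variant list had 6 higher (26.1%) and 8 lower (34.8%) of 23, near the 29.8% and 33.9% of all genes. In it, Chaf1b, a chromatin assembly factor gene, was at −4.64.

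Of 30 replication-dependent histone genes, 11 passed the filter on low counts, of which 3 rose and 4 fell. Most mRNAs of this class are known to end without a poly(A) tail, and H1f0 (1.92), which was in the list, is a linker histone gene outside the class. Genes that mark zygotic genome activation were low in both stages, and 6 of 12 tested fell. Zscan4d, one of several near-identical copies, had 13.9 to 21.5 CPM in GV and 1.77 to 6.04 CPM in ovulated oocytes.

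**Figure D4:**
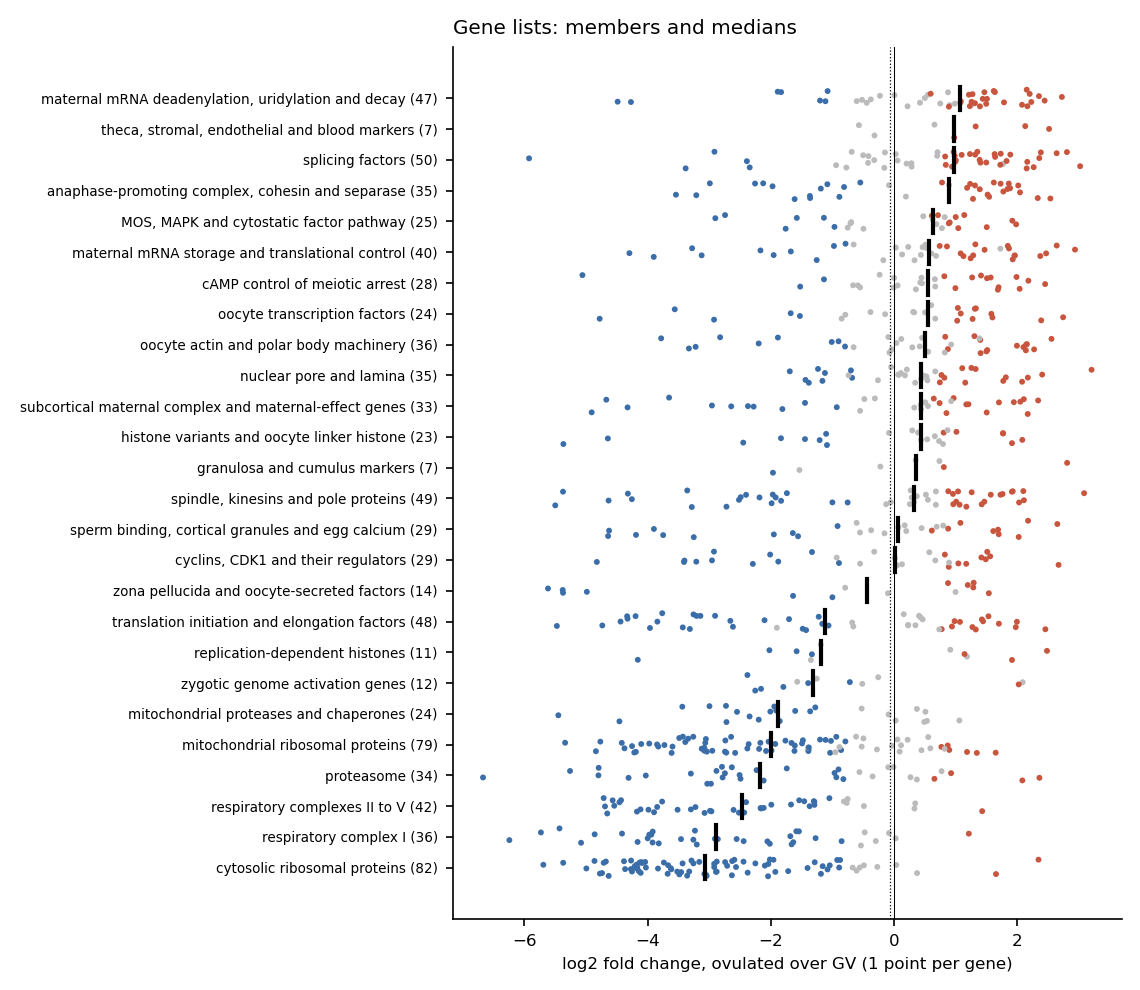
Log2 fold change of ovulated over GV oocytes (x axis) for the tested members of 26 gene lists, 1 point per gene (higher red, lower blue, not passed grey), with the number tested in parentheses and the list median as a black bar. Medians run from −3.06 for cytosolic ribosomal proteins to 1.08 for mRNA decay, and the dotted line marks the median of all genes (−0.07).

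Most markers of other ovarian cells were low, and a few, above all Serpine2, were not. Of 26 granulosa and cumulus markers, 17 were listed in both tables, and their summed level was 504.1 to 657.6 CPM in GV and 427.6 to 1137 CPM in ovulated oocytes. Serpine2 held most of it, with means of 534.2 and 682.4 CPM, and Cyp19a1 held 44.4 and 77.9 CPM. The receptor genes that define granulosa cells, Fshr (0.469 and 0.114 CPM) and Lhcgr (0.665 and 0.05 CPM), were near 0. Ptgs2, Vcan and Fst, which cumulus cells express around ovulation, were at or below 1.9 CPM on average and highest in ovulated replicate 3 (2.47, 2.92 and 5.53 CPM). Of 23 theca, stromal, endothelial and blood markers, 16 were listed, and their summed level was 61.5 to 67.7 CPM in GV and 104.5 to 149.5 CPM in ovulated oocytes. Pecam1 (35.8 and 70.6 CPM) and Myh11 (13.4 and 33.6 CPM) held most of that, with Cdh5, Col1a1 and Adgre1 under 0.05 CPM. Of the 7 granulosa markers tested, 2 rose and 1 fell, and of the 7 others 4 rose and 0 fell by edgeR (0 also at an unadjusted p of 0.05, by DESeq2 and by limma-voom). The part of such cells in the stage differences was not tested.

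The annotated structure of the transcripts differed between genes that rose and genes that fell. A GENCODE M21 transcript was found for 12235 of 12573 genes (97.3%), and the one with the longest 3′ UTR was used. Genes that rose had a median 3′ UTR of 1617 bases, genes that fell 671 bases and genes that did not pass 1188 bases. Their median coding lengths were 1746, 1077 and 1388 bases. The GC content of the 3′ UTR was 40.95% for genes that rose and 46.46% for genes that fell. Among the lists, cytosolic ribosomal protein genes had a median 3′ UTR of 129.5 bases, complex I genes one of 196 bases and the genes of mRNA storage one of 1525 bases. The zona and secreted factor genes had 255.5 bases with a median log2 fold change of −0.44, and splicing factor genes 628 bases with 0.98. The relation across lists was not tested.

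TTTTAT or TTTTAAT, searched on the mRNA strand in the last 100 bases of the 3′ UTR, was present in 19.3% of all genes, in 28.4% of those that rose and in 10.7% of those that fell. The median log2 fold change was 0.69 for 2353 genes with the motif and −0.30 for 9825 without it. With 1 motif the median was 0.67, with 2 it was 0.87, and with 3 or more, in 41 genes, it was 0.75. The difference was larger among short 3′ UTRs. With genes in 4 equal bins by length, the medians in the bin of up to 458 bases were 0.53 with and −1.58 without the motif, and in the longest bin they were 0.87 and 0.50. The shortest bin starts at 1 base, and a 3′ UTR under 100 bases gives a shorter stretch to search. Length and motif are therefore not separated within that bin. Over 4 bins of the GC content of the same 100 bases, from lowest to highest, genes with the motif were higher by 0.37, 0.41, 0.67 and 1.51.

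A shift in the same direction was found with another order of the letters and in another place. The reversed order, TATTTT or TAATTTT, which is not a known element and can overlap the first motif, gave medians of 0.57 with and −0.26 without it. In genes with the reversed order and no TTTTAT or TTTTAAT in that window the median was 0.33, and in genes with TTTTAT or TTTTAAT and no reversed order it was 0.61, against −0.44 with neither. The 100 bases upstream of that window were searched only in 3′ UTRs of at least 200 bases. TTTTAT or TTTTAAT there, with none in the window, gave 0.64 in 1108 genes against −0.26 in 7633 genes with neither. A hexamer AATAAA or ATTAAA in the last 50 bases was annotated for 78.9% of genes, with medians of 0.10 with and −0.67 without it. These are descriptions across genes, which are not independent replicates, and a match is not a site of action.

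**Figure D5:**
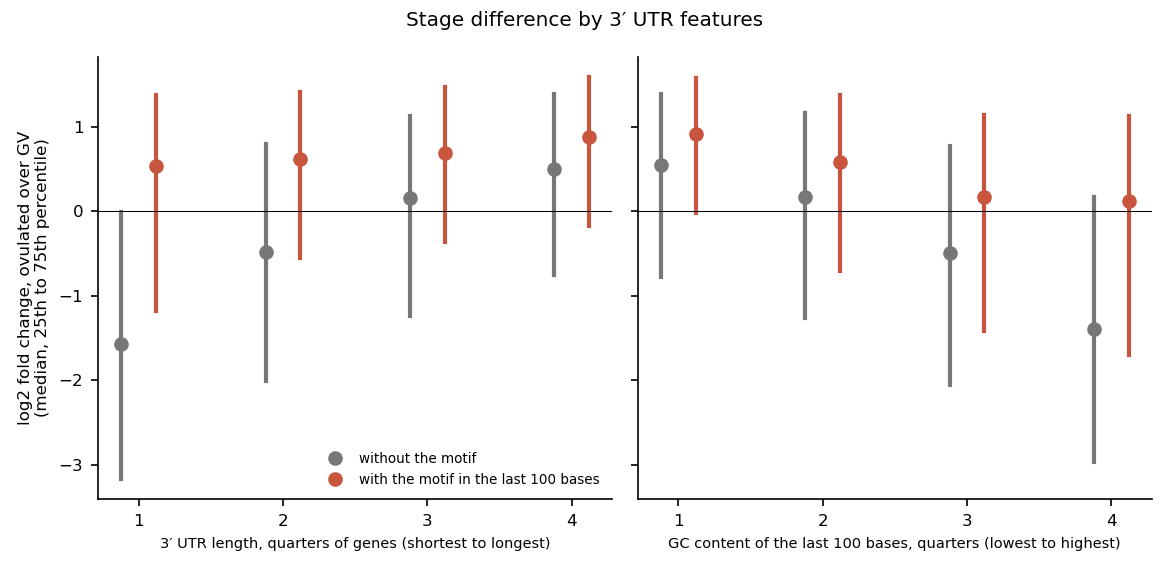
Median log2 fold change of ovulated over GV oocytes (points) with the 25th to 75th percentile of genes (lines), for genes with the motif (red) or without it (grey) in the last 100 bases of the 3′ UTR, in 4 equal bins of 3′ UTR length (left) and of GC content of those 100 bases (right). Genes with the motif have the higher median in all 8 bins, and the gap narrows from 2.10 in the shortest to 0.37 in the longest 3′ UTRs. The shortest bin includes 3′ UTRs under 100 bases, which give a shorter stretch to search, so length and motif are not separated within it.

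Among the genes whose sequences are shown, those with the motif did not all behave alike. Dcp1a rose, Ybx2 fell, and Cdc20, Btg4, Gdf9, H1f8 and Tcl1 did not pass. Beside the 19.3% of all genes, the motif was in 50% of the zona and secreted factor genes (7 of 14), 36.4% of the maternal-effect genes (12 of 33) and 19.6% of the mRNA decay genes (9 of 46). It was in 13.4% of cytosolic ribosomal protein genes (11 of 82) and 2.38% of genes for complexes II to V (1 of 42), but also in 12.5% of mRNA storage genes (5 of 40), 11.8% of anaphase-promoting complex and cohesin genes (4 of 34) and 13.9% of actin genes (5 of 36), whose medians were above 0.

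Because the 2 tables may rest on different annotation releases, the gene length implied by count over FPKM was compared between them. For 241 of the 16417 shared identifiers the tables gave different symbols. Of 4807 genes with at least 200 counts in every library, 64 (1.33%) had an implied length that differed between the stage means by more than 0.5 on the log2 scale. Of the 122 genes named by rule, 60 could be measured and none exceeded that limit, with Wasf2 farthest, by 0.26. None of the 10 largest rises or 10 largest falls could be measured, nor could Clpp, Rpl7a or Ndufa9. The minimum count leaves out genes that are near 0 in 1 stage, so their implied lengths were not compared. Among list members Arpp19 (1.74), Pan3 (−0.64) and Mrpl14 (0.51) were among those that did.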

How the data were processed

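Per the labels' protocols, lysed samples were reverse transcribed with SMART-SeqII and the cDNA was amplified by PCR. The build is mm10, per the submitters' processing notes. The aligner, counter and annotation are not given in the sources used here. For each stage the authors deposited expected counts per gene and, separately, FPKM, each as a table of libraries in columns. Between 14.4% and 16.3% of a WT library's deposited count values were fractional, so they were read as estimated counts and rounded. PCR copies are not independent molecules.

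GV and ovulated WT libraries were joined on gene ID and compared with edgeR 4.0.16 in R 4.3.3 (TMM scaling, low counts removed by filterByExpr at 10, quasi-likelihood test with robust estimation) on the 7 libraries. P-values were adjusted by Benjamini-Hochberg over all 12573 genes, at 0.05. SE is the absolute log2 fold change over the square root of F, and intervals are 95%. DESeq2 1.42.0 and limma 3.58.1 (on voom weights, or on log2 FPKM with a pseudocount of 1 or 0.1) gave alternatives. The edgeR step was tested on simulated counts. Detected genes were compared by exact permutation. Replicates showed no copies (chi-square per degree of freedom 40.6 to 325.1).

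Genes named were Clpx, the 10 largest changes in each direction (at least 10 CPM, no overlap, no predicted genes), up to 3 members per list by smallest p, 30 oocyte genes chosen by role, the 10 highest FPKM per stage and the 5 highest genes of 1 table only. Other list members are named as examples, chosen after their values were seen. The members and lists were chosen with earlier results of these data known. Some genes that these lists hold are not reported here.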

Additional observations from a re-analysis of the deposited data

Results flagged for a closer look

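Among 123 groups of 4 GV WT libraries examined, 1 for each named gene and 1 for detected genes, 3 held a library set apart from the rest by the gap between it and its neighbour relative to the group's range (Dixon's test), where chance gives about 1 in 20 such groups. For Clpx the gap was 0.981 of the range, with GV replicate 1 at 59.5 CPM and the others at 40.5, 40.8 and 40.5 CPM. For Tmed9 it was 0.935, with the same library at 10.8 CPM and the others at 5.66, 5.70 and 5.44 CPM. For Zp3 it was 0.844, with GV replicate 4 at 5701 CPM and the others at 4453, 4254 and 4326 CPM. Their ovulated levels lay outside the GV range in each case.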

How the results depend on the processing

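The counts of 3750 higher and 4264 lower genes ranged from 3293 to 4028 and from 3785 to 4519 when 1 library was left out. With DESeq2 they were 3979 and 4323, and with limma on log2(FPKM + 1) they were 4261 and 3720. Restricting to the 6840 genes with a mean of at least 10 CPM gave 2487 and 2490, from fewer genes tested. The labels do not say that replicate numbers pair the libraries. Same-numbered libraries had correlations of −0.051, 0.048 and −0.170 between their deviations from the group means, and other pairs −0.058 to 0.118. So few libraries cannot settle whether they are paired. With a replicate block the counts were 2940 and 3913, and the motif difference was 1.03 against 0.99.

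The difference in detected genes ranged from −1425 to −830 on leaving out 1 library, where p could not pass, and was −511 at 10 counts. The motif difference was 1.84 over the whole 3′ UTR and 0.63 on log2(FPKM + 1). Other fits, chosen after seeing the data, gave 0.80 to 1.12.

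Directions turned for values near 0 when 1 library was left out. Ccnb1 ranged from −0.613 to 0.026, Eif4e1b from −0.103 to 0.556 and Tcl1 from −0.012 to 0.831. The cyclin list's median of 0.02 became −0.052 with voom, −0.026 without a filter, −0.119 at 10 CPM and −0.056 with the replicate block, and −0.183 to 0.087 without 1 library. The sperm and calcium list's median of 0.07 became −0.073 with the block and −0.068 to 0.352 without 1 library. The granulosa list's median of 0.35, over 7 genes, became −0.44 with voom, −0.58 with the block and −1.58 to 0.65 without 1 library. The histone list's median of −1.19 became 0.062 at 10 CPM. The cause was not tested. For named genes, leaving out 1 library reversed the direction in 3 values, gained a call in 8 and lost one in 14. The other changes, of scaling, test, filter, samples or unit, kept the direction of named genes throughout. They kept the side of the threshold in 1173 values, gained a call in 28 and lost one in 8. Among those gained were Gdf9 (−0.752) and Cdk1 (−0.925) with DESeq2, and among those lost Ybx2 under scaling to total counts (−1.25). The adjusted p of Cyp19a1 was 0.0589 to 0.0843 without GV replicates 1 or 3 or ovulated replicates 1 or 3. Depth limits low genes, and the bin of genes up to 2.6 CPM had 22.1% called higher and 20.6% lower.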
